A study of Mus musculus with 4 samples.

Results

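The 40 genes described here act in DNA replication and S phase, and were taken by symbol from the 56941 features that each of 4 single-cell libraries of mouse marrow lists. All 40 symbols were found, each was detected in every library, and all 40 reached a mean of 5 CPM (UMIs of a gene per 1000000 UMIs of the library, a UMI being a tag that marks 1 captured RNA molecule) in each comparison. Their levels were not used to choose them, but the choice was made with earlier results of these data known.

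Before a cell can copy its genome, Cdc6 and other loading factors place rings of Mcm proteins on the DNA in G1, and Geminin keeps them from being loaded again once S phase has begun. Cdc45 and the GINS complex turn the Mcm rings into moving helicases, polymerases follow with the sliding clamp Pcna, and new DNA needs deoxynucleotides, histones and the copying of methylation marks. Many of these genes are transcribed as a cell enters S phase, under factors of the E2F family, so their mRNA is widely read as a sign of cycling; in marrow, early progenitors and erythroid precursors divide often and mature neutrophils do not.

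The study set mice with and without Rbm5, an RNA-binding splicing regulator, side by side in normal blood progenitors and in leukaemia. MLL-AF9 is a fusion oncogene that gives rise to acute myeloid leukaemia. The 4 groups hold 1 library each: c-Kit+ marrow cells labelled WT, c-Kit+ marrow cells labelled KO, MLL-AF9 leukaemia cells labelled WT, and MLL-AF9 leukaemia cells labelled KO, the leukaemias taken at a common endpoint after primary transplantation. Strain, age, the deleted allele, any Cre driver, the vector that carried MLL-AF9 and the number of mice behind a library are not given in the sources used here. With 1 library per group there is no test, and every interval below is a 95% interval for counting error only, which says nothing of the spread between animals.

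After filtering, 12370, 13284, 12768 and 11406 cells were kept, in the order of groups above, with 86739221, 96153076, 87547597 and 95265137 UMIs and median depths of 5168, 5297, 5810 and 7310.5 UMIs per cell. Any pair of libraries shared between 44 and 69 cell barcodes. Rbm5 itself was at 75.4 CPM in c-Kit+ cells labelled WT and 89.9 CPM in those labelled KO, against the label, and at 160.4 and 116 CPM in the leukaemias. The deleted part of Rbm5 is not named and reads from outside it check nothing, so each library is called by its label. The labels of cell type held in part. Meis1 was at 508.8 and 346 CPM in the leukaemias against 44.1 and 47.3 CPM in c-Kit+ cells, and Hoxa9 at 174 and 105 against 5.34 and 5.43 CPM. A UMI of Kit was seen in 17.0% and 17.9% of c-Kit+ cells, while 60.0% and 55.7% of them fell in a gate for maturing neutrophils. The leukaemia library labelled KO stood apart in 10 immediate early genes, whose summed level was 2751 and 2393 CPM in c-Kit+ cells and 435 and 14623 CPM in the leukaemias labelled WT and KO. All 10 were higher in the latter.

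Promoters of 6 of the genes are printed first, because E2F factors bind a short motif near the start of many replication genes. Windows of 250 bases before to 50 bases after the start came from RefSeq (build GRCm38.p6), which held 1 or more for 30 of the 40 genes. They were searched on both strands for TTTCCCGC, TTTGGCGC, TTTCGCGC and TTTGGCGG. A window of 12 of these 30 genes held a match (40%), as did a window of 19 of 41 other replication genes (46.3%), against 2.70% of the 27025 symbols with a window. Over windows, 777 of 32851 held a match (2.37%). The 6 shown are those of the representative genes (named in the methods) with the most matches, in capitals, 5′ to 3′ along the gene's strand: Mcm5 at chr8:75109259-75109558 (plus strand), Clspn at chr4:126556730-126557029 (plus strand), Cdc6 at chr11:98907901-98908200 (plus strand), Pola1 at chrX:93632106-93632405 (minus strand), Uhrf1 at chr17:56304063-56304362 (plus strand) and Hells at chr19:38930740-38931039 (plus strand).
Mcm5: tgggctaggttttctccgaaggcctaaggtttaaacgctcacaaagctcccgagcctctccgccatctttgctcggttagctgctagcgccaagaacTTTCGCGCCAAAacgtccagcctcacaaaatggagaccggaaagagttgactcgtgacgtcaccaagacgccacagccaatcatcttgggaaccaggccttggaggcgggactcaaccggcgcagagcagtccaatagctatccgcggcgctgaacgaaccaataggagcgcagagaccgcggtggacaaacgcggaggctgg
Clspn: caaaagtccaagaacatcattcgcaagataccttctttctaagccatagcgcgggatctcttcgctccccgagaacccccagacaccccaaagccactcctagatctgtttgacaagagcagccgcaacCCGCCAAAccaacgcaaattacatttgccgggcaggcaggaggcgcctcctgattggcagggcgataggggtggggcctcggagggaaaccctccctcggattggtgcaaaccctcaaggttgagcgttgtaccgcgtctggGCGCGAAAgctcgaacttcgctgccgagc
Cdc6: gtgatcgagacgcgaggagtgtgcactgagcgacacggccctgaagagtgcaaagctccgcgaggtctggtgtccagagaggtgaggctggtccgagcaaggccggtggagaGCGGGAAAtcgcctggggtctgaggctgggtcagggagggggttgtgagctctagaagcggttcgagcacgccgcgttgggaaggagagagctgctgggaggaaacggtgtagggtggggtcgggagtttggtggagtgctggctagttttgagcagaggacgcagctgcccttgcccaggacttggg
Pola1: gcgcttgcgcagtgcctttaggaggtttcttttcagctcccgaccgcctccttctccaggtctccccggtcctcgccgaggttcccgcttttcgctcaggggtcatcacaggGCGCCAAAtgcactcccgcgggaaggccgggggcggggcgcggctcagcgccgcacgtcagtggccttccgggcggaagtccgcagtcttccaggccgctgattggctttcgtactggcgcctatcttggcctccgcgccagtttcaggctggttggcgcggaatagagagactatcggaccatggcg
Uhrf1: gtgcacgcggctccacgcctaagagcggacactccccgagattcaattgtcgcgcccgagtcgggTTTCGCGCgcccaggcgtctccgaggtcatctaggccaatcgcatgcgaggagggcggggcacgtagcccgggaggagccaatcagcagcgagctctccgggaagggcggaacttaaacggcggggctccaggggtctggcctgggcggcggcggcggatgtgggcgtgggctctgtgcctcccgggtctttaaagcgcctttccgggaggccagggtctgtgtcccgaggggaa
Hells: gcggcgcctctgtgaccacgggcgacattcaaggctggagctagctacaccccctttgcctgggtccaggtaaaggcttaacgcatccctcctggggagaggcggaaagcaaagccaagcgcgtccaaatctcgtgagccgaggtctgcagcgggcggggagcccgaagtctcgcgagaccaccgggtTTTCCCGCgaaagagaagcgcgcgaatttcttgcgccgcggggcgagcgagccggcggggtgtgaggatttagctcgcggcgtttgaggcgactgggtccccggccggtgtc
The 2 matches of Mcm5, TTTCGCGC on the printed strand and TTTGGCGC on the other, overlap and are capitalised as 1 run. Those of Clspn are TTTGGCGG and TTTCGCGC, both on the other strand, and the second lies after the annotated start. By the gene starts of GENCODE M21, another annotation, the Cdc6 and Uhrf1 windows lie wholly inside the gene, and the Hells match after its start. A match is a description of the letters and not a bound site. Genes with and without one covered overlapping ranges in leukaemia: the log2 ratio of the library labelled KO to that labelled WT had a median of -0.88 over the 12 genes with a match (-1.57 to -0.70), -0.71 over the 18 without (-1.82 to -0.19) and -0.78 over the 10 with no window.

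In CPM, replication genes were lower in the leukaemia library labelled KO than in the one labelled WT (for 34 of 40 also with another scaling, given below), and close to equal in the c-Kit+ pair. Their summed level was 3269 CPM (3257 to 3281) and 3342 CPM (3330.5 to 3354) in c-Kit+ cells labelled WT and KO, and 2979 CPM (2967 to 2990.1) and 1785 CPM (1777 to 1794) in the leukaemias. Of the 4 libraries, the leukaemia labelled KO lay below the others. Labelled KO over labelled WT gave a ratio of 0.599 (0.596 to 0.603) for the leukaemias, and one of 1.02 (1.017 to 1.03) for c-Kit+ cells. A sum over a library cannot tell fewer replicating cells from less RNA of these genes per cell. The share of cells with many of the 40 genes, given further on, falls in either case, so it cannot tell them apart.

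**Figure D1:**
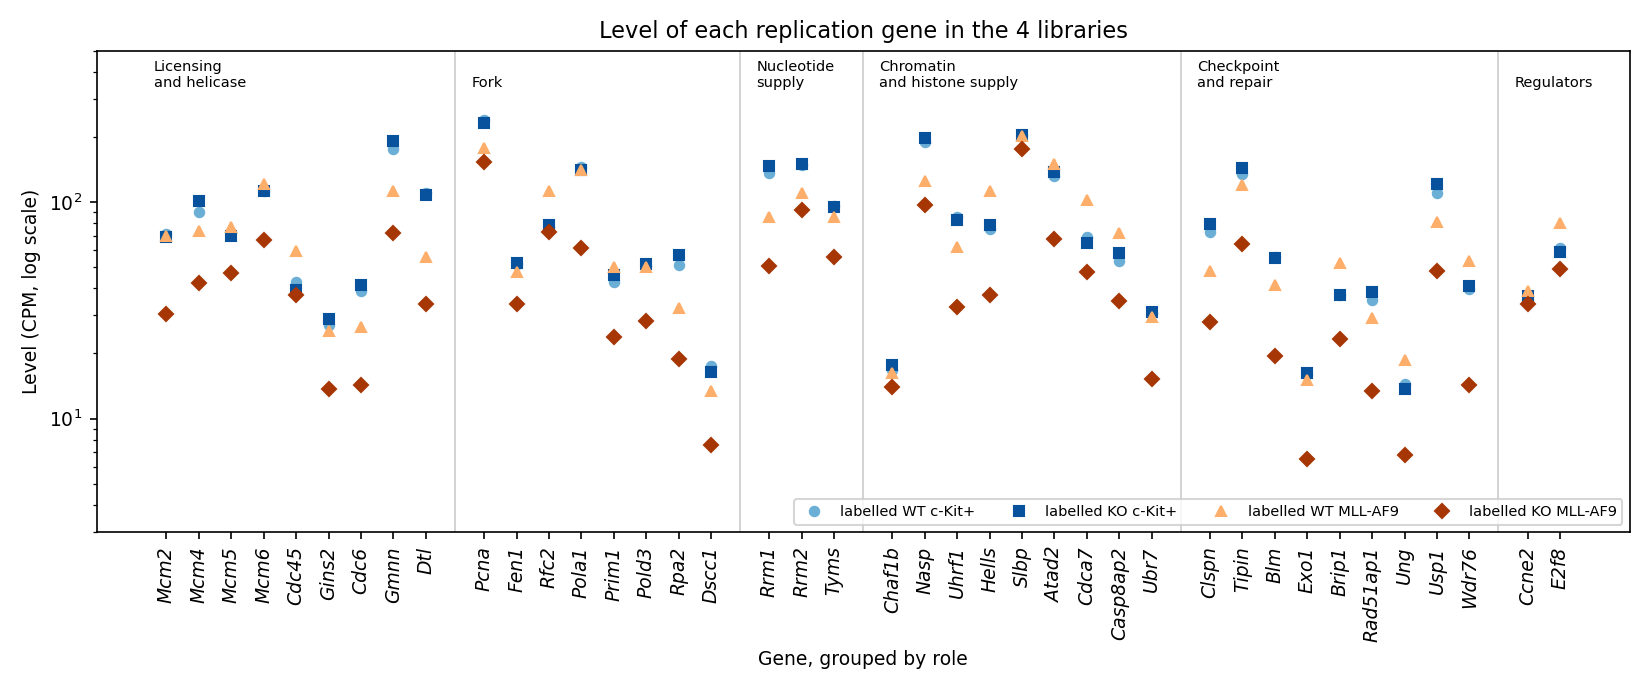
Level of each of the 40 replication genes (CPM, log axis) in the 4 libraries, 1 point per library, with genes grouped by role. The point of the leukaemia labelled KO lies below that of the leukaemia labelled WT for all 40 genes, where 74.5% of all genes were lower. The pairs run from 14.4 against 53.2 CPM for Wdr76 to 34.0 against 38.8 CPM for Ccne2. With median-ratio size factors Ccne2 is higher in the leukaemia labelled KO, as are Pcna, Rrm2, Chaf1b, Nasp and Slbp.

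In leukaemia all 40 genes had a lower CPM in the library labelled KO, as did 74.5% of all genes whose mean reached 5 CPM. All 40 intervals of the ratio lay below 1, and the share of all genes with such an interval was not counted. By 1.5-fold or more, on log2 of CPM plus 1, 33 of 40 were lower, where 35.2% of all genes whose mean reached 5 CPM were lower by that much; 0 of 40 were higher, against 9.57% of all genes. The median log2 ratio was -0.80 for the 40 genes and -0.39 for all genes, so part of the distance from 0 is shared with the transcriptome. Read against that shift, 34 of 40 lay below the median of all genes. When libraries were scaled by median-ratio size factors instead, 13 of 40 were lower by 1.5-fold, against 15.4% of all genes, the median of the 40 was -0.44 and that of all genes -0.03; 34 of 40 stayed below 0, and Pcna, Rrm2, Chaf1b, Nasp, Slbp and Ccne2 were then above it.

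**Figure D2:**
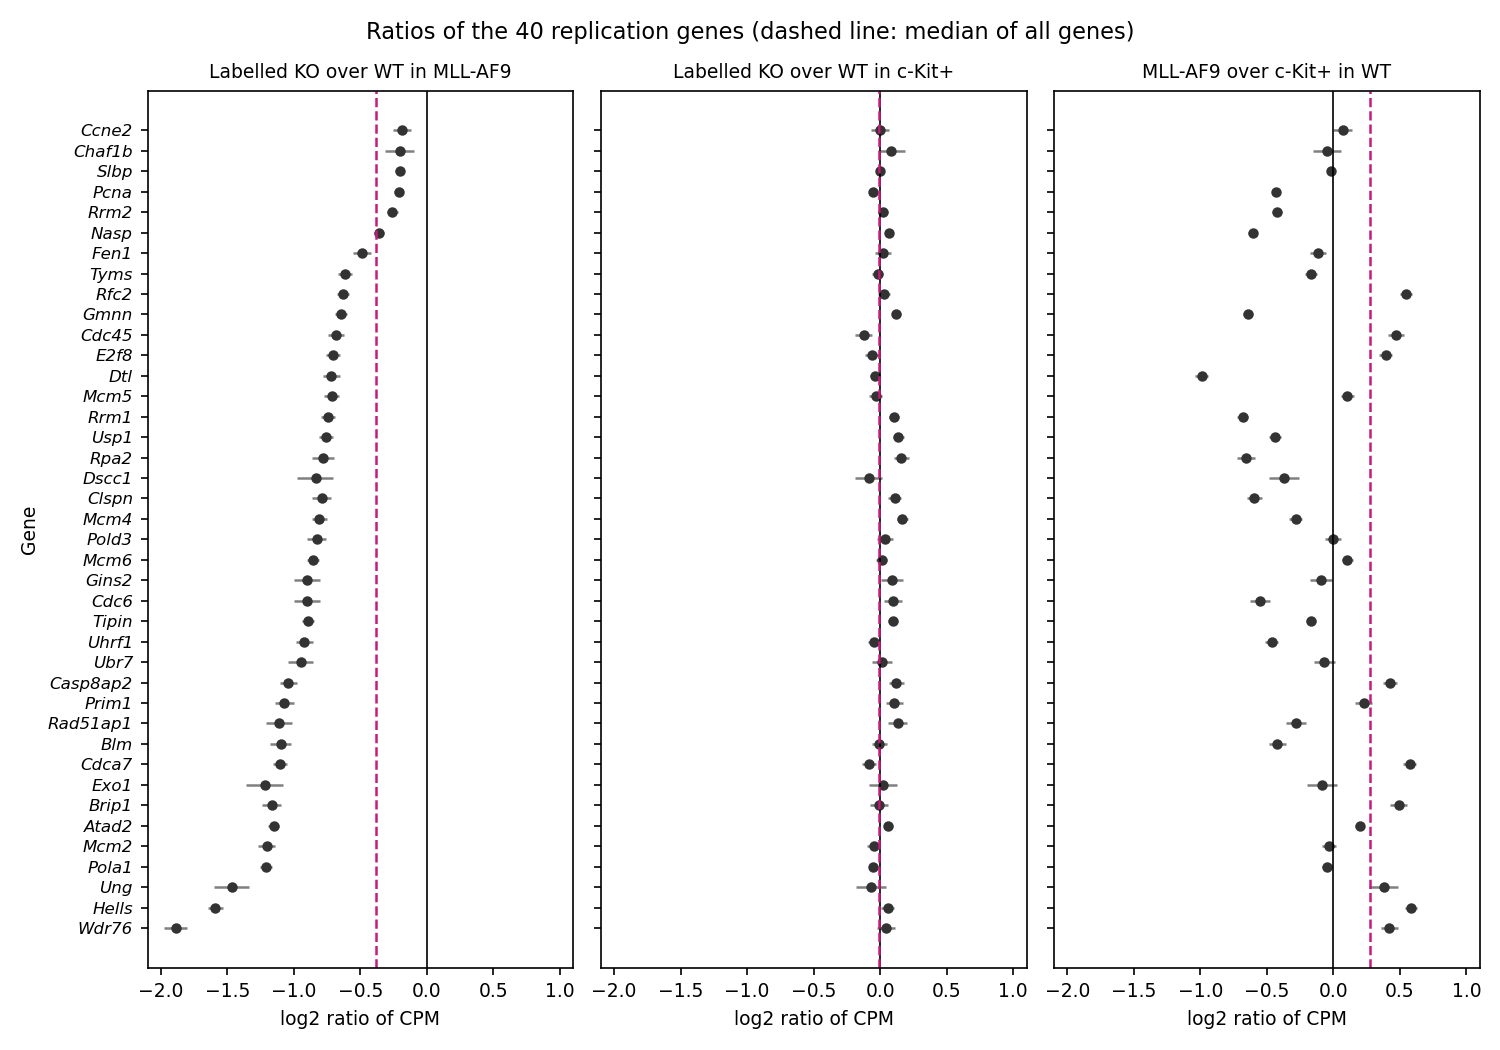
log2 ratio of CPM for each of the 40 genes in 3 comparisons, with 95% intervals for counting error as grey bars and the median of all genes as a dashed line. In leukaemia the ratios run from 0.270 for Wdr76 to 0.877 for Ccne2, and in c-Kit+ cells from 0.917 to 1.12; with median-ratio size factors Ccne2, Chaf1b, Slbp, Pcna, Rrm2 and Nasp lie above 0 in leukaemia.

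Of the licensing and helicase genes 9 of 9 were lower by 1.5-fold in leukaemia in CPM (35.2% of all genes), with a median log2 ratio of -0.79. With median-ratio size factors 1 of 9 was (15.4% of all genes), and the median was -0.43. Mcm2, a subunit of the helicase ring, was at 71.6 and 69.2 CPM in c-Kit+ cells labelled WT and KO and at 69.9 and 30.3 CPM in the leukaemias, a ratio of 0.434 (0.415 to 0.454) in leukaemia. In CPM only the last library departed from the other 3. With median-ratio size factors leukaemia labelled WT also lay below c-Kit+ cells labelled WT, at a log2 ratio of -0.32. Mcm5, another subunit of the ring, was at 71.8, 70.1, 77.1 and 47.0 CPM in the same order, and its ratio in leukaemia was 0.609 (0.586 to 0.632). The loader Cdc6 was at 39.0, 41.6, 26.6 and 14.2 CPM, so that in CPM leukaemia labelled WT lay below c-Kit+ cells as well, and its KO to WT ratio was 0.536 (0.501 to 0.573). Gmnn, which encodes Geminin, the inhibitor of loading, had the highest ratio of the group: it stood at 175, 191, 113 and 72.1 CPM, a ratio of 0.640 (0.621 to 0.660). The remaining 5 (Mcm4, Mcm6, the helicase activators Cdc45 and Gins2, and Dtl, the adaptor of a ligase that destroys the loading factor Cdt1) had ratios from 0.535 to 0.623.

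Of 8 genes that act at the fork, 6 were lower by 1.5-fold in leukaemia in CPM (35.2% of all genes), with a median of -0.76. With median-ratio size factors 2 were (15.4% of all genes), and the median was -0.41. Pcna, the sliding clamp, was at 239.7, 231, 178 and 154 CPM, a ratio of 0.863 (0.844 to 0.883) in leukaemia that became a log2 ratio of 0.16 with median-ratio size factors. Pola1, the catalytic subunit of the polymerase that starts each new strand, was at 146, 141, 141 and 61.3 CPM, a ratio of 0.433 (0.420 to 0.447). The clamp and the starting polymerase thus lay at opposite ends of the group, although both were near their c-Kit+ level or moderately below it in leukaemia labelled WT. Fen1, the nuclease that trims Okazaki fragments, was at 51.6, 52.4, 47.6 and 34.0 CPM, a ratio of 0.714 (0.682 to 0.748). It is one of 6 of the 40 genes whose body overlaps another coding gene (Tmem258, on the other strand), the others being Cdc45, Gins2, Rfc2, Ubr7 and Ccne2; whether counting used strand is not given in the sources used here. The primase subunit Prim1, the polymerase subunit Pold3, the single-strand binding protein Rpa2, the clamp loader Rfc2 and the cohesion-linked clamp loader subunit Dscc1 had ratios from 0.476 to 0.646.

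The 3 genes of nucleotide supply differed among themselves, with 2 lower by 1.5-fold in CPM (35.2% of all genes) and 0 with median-ratio size factors (15.4% of all genes). Rrm1 and Rrm2 are the large and small subunits of ribonucleotide reductase, which makes deoxynucleotides. Rrm1 was at 137, 147, 85.3 and 50.9 CPM, a ratio of 0.597 (0.576 to 0.619) in leukaemia. Rrm2 was at 148, 150.1, 110.1 and 92.0 CPM, a ratio of 0.835 (0.811 to 0.860), or a log2 ratio of 0.11 with median-ratio size factors. Tyms, which makes the thymidylate that only DNA uses, was at 96.0, 94.8, 85.3 and 55.7 CPM, a ratio of 0.652 (0.630 to 0.676). The 2 subunits of one enzyme therefore had unequal ratios, with intervals that do not meet.

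Chromatin and histone supply covered a wide range, with 6 of 9 lower by 1.5-fold in CPM (35.2% of all genes). With median-ratio size factors 4 of 9 were (15.4% of all genes). Hells, a remodeller needed for DNA methylation, was at 75.1, 78.1, 112 and 37.3 CPM. It was the gene with the highest ratio of leukaemia to c-Kit+ among the libraries labelled WT (1.495, 1.45 to 1.54), and the second lowest of the 40 for labelled KO to WT in leukaemia (0.332, 0.319 to 0.345). Cdca7, which recruits Hells to chromatin, was at 68.7, 64.9, 102 and 47.5 CPM, likewise highest in leukaemia labelled WT and lowest in that labelled KO. Uhrf1, which brings the maintenance methyltransferase to newly copied DNA, was at 85.3, 82.7, 61.9 and 32.7 CPM, a ratio of 0.528 (0.505 to 0.552). Slbp, which binds the stem loop of histone mRNAs, was at 205, 204, 202 and 175 CPM, a ratio of 0.867 (0.849 to 0.885). Chaf1b, a subunit of the CAF-1 histone chaperone, was at 16.8, 17.8, 16.2 and 14.1 CPM, a ratio of 0.868 (0.805 to 0.936). Slbp and Chaf1b were the closest to 1 of this group, and with median-ratio size factors each had a log2 ratio of 0.16. The histone chaperone Nasp had a ratio of 0.779 (0.758 to 0.801) and a log2 ratio of 0.01 with those size factors. Atad2, a chromatin ATPase, Casp8ap2, a factor of histone mRNA processing, and Ubr7 had ratios from 0.450 to 0.518.

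Checkpoint and repair genes had the lowest median of the role groups, -1.06, and 9 of 9 were lower by 1.5-fold in CPM (35.2% of all genes). With median-ratio size factors 6 of 9 were (15.4% of all genes), and the median was -0.71. Wdr76, a WD repeat protein that gathers at damaged DNA, was at 39.8, 41.0, 53.2 and 14.4 CPM. Its ratio in leukaemia, 0.270 (0.254 to 0.287), was the lowest of the 40. Ung, the glycosylase that removes uracil from DNA, was at 14.4, 13.8, 18.7 and 6.77 CPM, a ratio of 0.362 (0.330 to 0.396). Both were above their c-Kit+ level in leukaemia labelled WT and below it in leukaemia labelled KO. Clspn, the adaptor through which stalled forks signal to the kinase Chk1, was at 73.0, 78.8, 48.3 and 27.9 CPM, a ratio of 0.578 (0.551 to 0.607). The helicases Blm and Brip1, the nuclease Exo1, the repair gene Rad51ap1, the fork protection factor Tipin and the deubiquitinase Usp1 had ratios from 0.430 to 0.590.

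The 2 regulators differed in the same way. E2f8, an E2F repressor that acts late in S phase, was at 61.3, 58.6, 80.4 and 49.3 CPM, a ratio of 0.613 (0.590 to 0.636). Ccne2, a cyclin of the G1 to S step, was at 36.9, 36.9, 38.8 and 34.0 CPM. Its ratio, 0.877 (0.836 to 0.921), was the closest to 1 of the 40 and turned to a log2 ratio of 0.18 with median-ratio size factors.

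Of 49 replication genes outside the 40, 34 were lower by 1.5-fold in leukaemia in CPM (35.2% of all genes), with a median of -0.75. With median-ratio size factors 15 of 49 were lower (15.4% of all genes), with a median of -0.38. Their summed level was 2446 and 1410.0 CPM in the libraries labelled WT and KO. The lowest were Gins3, a GINS subunit (14.6 and 4.10 CPM), Wdhd1, which ties the helicase to the polymerase (33.6 and 12.6 CPM), and Pole2, a subunit of the leading strand polymerase (27.4 and 10.5 CPM). The highest were Orc1, of the origin recognition complex (8.43 and 8.51 CPM), E2f2 (50.1 and 49.5 CPM) and Dbf4, the activator of the kinase Cdc7 (40.3 and 37.5 CPM). All 3 were above 0 with median-ratio size factors. Among 15 mitotic genes 8 were lower by 1.5-fold in CPM (35.2% of all genes), with a median of -0.64. With median-ratio size factors 1 of 15 was lower, a smaller share than the 15.4% of all genes, and the median was -0.27.

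In the c-Kit+ pair none of the 40 genes was apart by 1.5-fold: 0 of 40 were lower, against 0.199% of all genes, and 0 of 40 higher, against 0.261%. The median log2 ratio was 0.02, with 16 genes below 0 and 24 above. Of all genes 53.0% were below 0, and their median was -0.009. The lowest were Cdc45 (42.9 CPM labelled WT, 39.4 labelled KO), Dscc1 (17.4 and 16.4 CPM) and Cdca7 (68.7 and 64.9 CPM). The highest were Mcm4 (89.8 and 101 CPM), Rpa2 (51.3 and 57.3 CPM) and Usp1 (110.4 and 121 CPM). For 19 genes the interval spanned 1, and the share of all genes with such an interval was not counted. In CPM the log2 ratio in leukaemia was below that in c-Kit+ cells for 40 of 40 genes and 74.1% of all genes, with a median difference of -0.88 for the 40 and -0.39 for all genes. Each pair of ratios came from its own libraries, and the difference was not tested. It was smallest for Pcna (-0.16) and widest for Wdr76 (-1.86). With median-ratio size factors it was below 0 for 35 of 40 and 53.2% of all genes, with medians of -0.53 and -0.05, and Pcna, Slbp, Ccne2, Chaf1b and Rrm2 then lay above their c-Kit+ ratio. For 15 of the 40 the interval was below 1 in leukaemia and above 1 in c-Kit+ cells, as it was for 17.7% of all genes.

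Leukaemia against normal c-Kit+ cells, both labelled WT, gave a mixed picture, and this comparison shares its libraries with the other 2. By 1.5-fold 6 of 40 were lower in leukaemia, against 11.2% of all genes, and 0 of 40 higher, against 32.7%. The median was -0.07, beside 0.27 for all genes. With median-ratio size factors 13 of 40 were lower, against 19.4% of all genes, and the median was -0.35. The lowest were Dtl (110.4 CPM in c-Kit+ cells, 55.5 in leukaemia), Rrm1 (137 and 85.3 CPM) and Rpa2 (51.3 and 32.6 CPM). The highest were Hells (75.1 and 112 CPM), Cdca7 (68.7 and 102 CPM) and the clamp loader subunit Rfc2 (77.1 and 113 CPM), which stayed above 0 with those size factors. When the gates described next were given the same weights in both libraries, the median turned to 0.10.

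Cells were placed in gates by marker genes that hold none of the 40, and a gate is a range of marker counts, not a cell type. The progenitor gate held 1913, 2252, 6482 and 2707 cells, the erythroid gate 869, 1214, 92 and 241, and the maturing gate, with 2% or more of UMIs from granule genes of maturing neutrophils, 7427, 7393, 4220 and 7028. The make-up of the leukaemias differed: progenitor cells were 50.8% of the library labelled WT and 23.7% of that labelled KO, and maturing cells 33.1% and 61.6%. Summed over each list, progenitor markers were at 8977, 10123, 7653 and 5994 CPM, maturing markers at 68050, 63437, 20091 and 44177 CPM, erythroid markers at 930, 886, 91.0 and 261 CPM and monocyte markers at 941, 963, 1991 and 1315 CPM, with no marker at 0 in any library.

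In each library the erythroid gate had the highest summed level of the 40 genes, then the progenitor gate, then the maturing gate. In the erythroid gate the sum was 6691, 6919, 6394 and 4323 CPM, in the progenitor gate 3796, 3750.1, 3163 and 1964 CPM, and in the maturing gate 2093, 2133, 2935 and 1683 CPM. Of these 3 gates, leukaemia labelled WT lay above both c-Kit+ libraries in the maturing gate only. Against c-Kit+ cells labelled WT, 17 of 40 were higher there by 1.5-fold (48.3% of all genes). The median log2 ratio was 0.51, beside 0.56 for all genes, so the 40 did not rise above the transcriptome of this gate. Late neutrophil cells, those of the maturing gate with a UMI of both Cxcr2 and Mmp9, had 571, 731, 1059.9 and 697 CPM. Gene by gene, 36, 36, 35 and 38 of the 40 were highest in the erythroid gate, and the share of all genes highest there was not counted. In both c-Kit+ libraries the 4 exceptions were Rfc2, Hells, Cdca7 and Ung, which were highest in the progenitor gate: Cdca7 was at 117 and 107 CPM there and at 69.4 and 60.4 CPM in the erythroid gate. In c-Kit+ cells all 40 were lower in late neutrophil cells than in the 3 gates. In leukaemia labelled WT all but Cdca7 were, and in that labelled KO all but Cdca7 and Ccne2. How many of all genes were lower in late neutrophil cells was not counted, so these counts have no background. Ccne2 was at 3.69, 5.15, 13.1 and 30.6 CPM in late neutrophil cells, the last of them above the 19.9 CPM of its own progenitor gate.

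In CPM, the lower level in leukaemia labelled KO was present in the progenitor, erythroid and maturing gates and in late neutrophil cells. Whether the cells of a gate came from the transplanted leukaemia or from the recipient mouse was not determined. The ratio of summed levels was 0.621 (0.615 to 0.627) in the progenitor gate, 0.676 (0.655 to 0.698) in the erythroid gate and 0.573 (0.568 to 0.579) in the maturing gate. With the gates weighted alike in both libraries it was 0.607, beside 0.599 as sampled. In the progenitor gate 28 of 40 were lower by 1.5-fold (23.5% of all genes there) and 0 higher (9.65%). In the maturing gate 32 of 40 were lower (28.3% of all genes) and 0 higher (9.96%). In the erythroid gate, with 92 and 241 cells, 20 of 40 were lower (38.8% of all genes) and 0 higher (5.45%). The medians were -0.76, -0.87 and -0.57 in the progenitor, maturing and erythroid gates, beside -0.24, -0.29 and -0.42 for all genes, so the erythroid gate stood nearest to its background. In late neutrophil cells, which are part of the maturing gate, the ratio was 0.658 (0.634 to 0.683), with 28 of 40 lower (31% of all genes) and 1 higher (12.5%). Hells was at 120.0 and 44.4 CPM in progenitor cells labelled WT and KO, at 114 and 36.5 CPM in maturing cells and at 112 and 50.2 CPM in erythroid cells. Wdr76 was at 59.0 and 17.2 CPM in progenitor, 47.0 and 12.8 CPM in maturing and 92.7 and 38.7 CPM in erythroid cells. Ung differed by gate: it was at 23.4 and 12.2 CPM in progenitor and 13.5 and 4.12 CPM in maturing cells, but at 23.2 and 23.0 CPM in erythroid cells, where it had 21 and 66 UMIs. Immediate early genes were higher in the library labelled KO within each gate too, at 399 and 15524 CPM in progenitor, 128 and 2640.2 CPM in erythroid and 423 and 13915 CPM in maturing cells; their part in the lower replication genes was not tested.

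In the progenitor, erythroid and maturing gates of the c-Kit+ pair no gene of the 40 was apart by 1.5-fold. In the progenitor gate 0 of 40 were lower (0.348% of all genes) and 0 higher (0.553%), in the erythroid gate 0 lower (0.631%) and 0 higher (0.664%), and in the maturing gate 0 lower (0.249%) and 0 higher (0.648%). The ratios of summed levels were 0.988 (0.978 to 0.997), 1.03 (1.025 to 1.04) and 1.02 (1.010 to 1.03). Late neutrophil cells were apart from these: the ratio was 1.28 (1.23 to 1.33), the median log2 ratio 0.38, 0 of 40 were lower (2.06% of all genes) and 6 of 40 higher (2.98%).

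Counting genes in single cells gave the same order of libraries. Each cell was thinned to 2000 UMIs, which left out 1423, 1772, 1188 and 510 shallower cells, and a cell was counted when 5 or more of the 40 genes were detected. Such cells were 35.0% (34.1 to 35.9), 37.8% (36.9 to 38.7), 30.7% (29.9 to 31.5) and 14.4% (13.8 to 15.1). Without thinning, at 10 or more genes, the shares were 40.1%, 42.4%, 34.9% and 21.7%. The share in leukaemia labelled KO over that labelled WT was 0.470 (0.446 to 0.496, Katz log interval, a normal approximation). In c-Kit+ cells it was 1.08 (1.04 to 1.12). No gene of the 40 was seen in 25.5%, 21.4%, 18.2% and 27.7% of cells, a narrower range than that of the cells with many genes. Cells with 5 or more genes held 82.5%, 82.6%, 76.9% and 59.2% of all UMIs of the 40 genes.

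**Figure D3:**
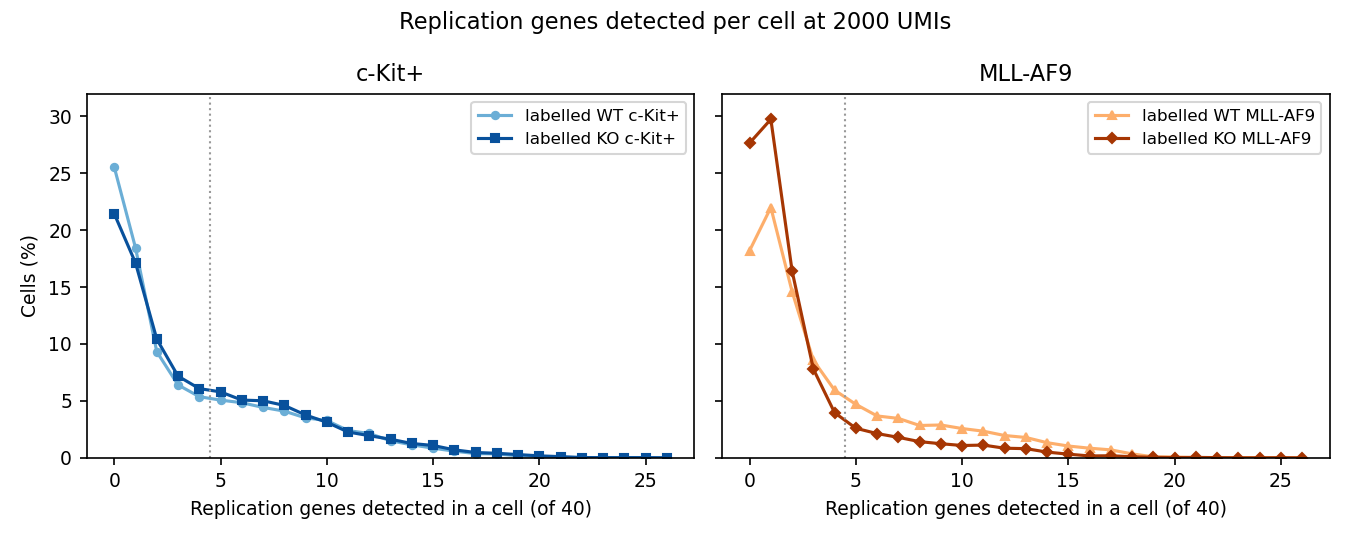
Share of cells (%) by the number of the 40 genes detected in a cell thinned to 2000 UMIs, for the c-Kit+ pair and the leukaemia pair; the dotted line marks the step from 4 to 5 genes. The c-Kit+ curves lie close together, while in leukaemia the curve labelled KO is above at 0 and 1 genes (27.7% and 29.7%, against 18.2% and 22.0%) and below it between 5 and 15 genes.

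By gate, many-gene cells were commonest among erythroid cells, at 82.7% and 82.4% of those in the c-Kit+ libraries labelled WT and KO and 44.3% (33.7 to 55.3) and 36.1% (29.9 to 42.7) of those in the leukaemias. In the progenitor gate the shares were 61.9% and 60.8% in c-Kit+ cells and 36.5% and 18.5% in leukaemia. In the maturing gate they were 24.2% and 25.6%, and 30.0% and 14.1%. Progenitor cells of leukaemia labelled WT thus held fewer such cells than c-Kit+ progenitor cells, a ratio of 0.589 (0.561 to 0.619), and maturing cells held more, 1.24 (1.16 to 1.32). For all genes the median log2 ratio of CPM in that comparison was 0.17 in progenitor and 0.56 in maturing cells. Labelled KO over WT in leukaemia gave 0.506 (0.463 to 0.552) in progenitor, 0.472 (0.438 to 0.508) in maturing and 0.814 (0.609 to 1.09) in erythroid cells. The last interval spans 1, while without thinning, at 10 or more genes, the erythroid ratio was 0.779 (0.611 to 0.994). Late neutrophil cells and T or NK cells were both chosen as cells of which few should be in S phase. Late neutrophil cells gave 1.98%, 3.09%, 3.95% and 1.58%, at unthinned median depths of 3409, 3366, 4172 and 5822 UMIs. T or NK cells gave 13.7%, 14.5%, 9% and 6%, at 3258, 3030.0, 4356 and 5829 UMIs. In c-Kit+ marrow the T or NK shares were thus not low, and lay near the 14.4% of all cells in leukaemia labelled KO.

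**Figure D4:**
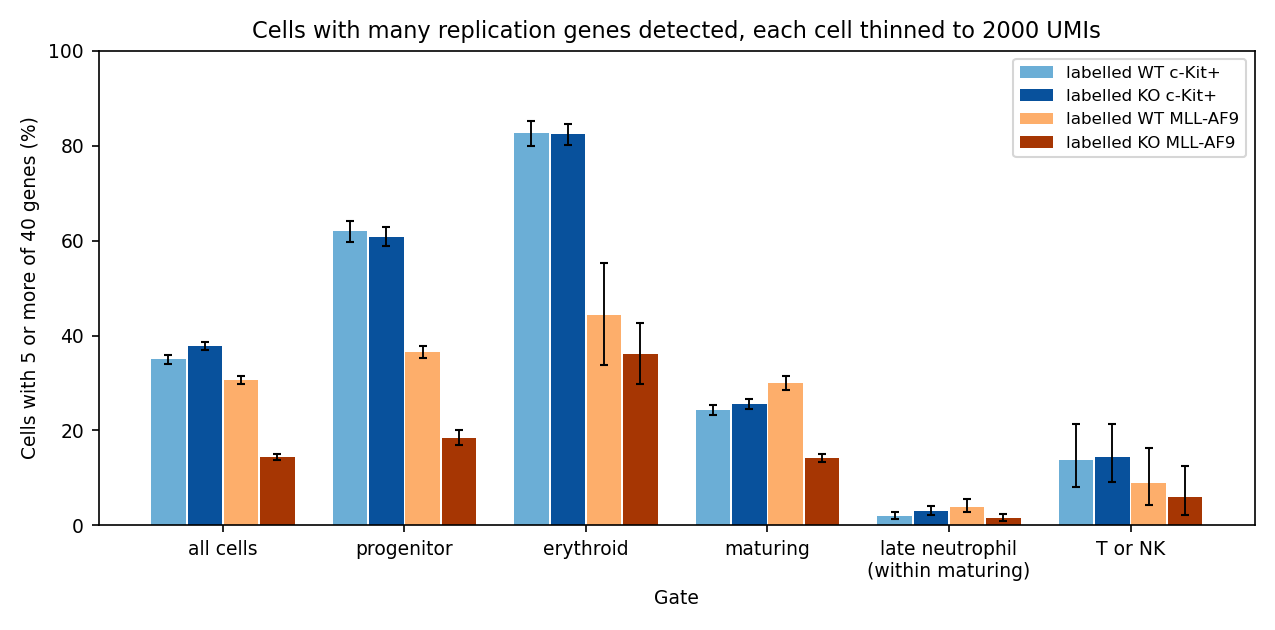
Cells with 5 or more of the 40 genes detected (%, each cell thinned to 2000 UMIs) by gate and library, with exact 95% binomial intervals as bars. Leukaemia labelled KO is below leukaemia labelled WT in all cells (14.4% and 30.7%), progenitor (18.5% and 36.5%) and maturing cells (14.1% and 30.0%), while the intervals of erythroid cells overlap.

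Mitotic genes, which are no part of the 40, were used to divide the cells. The division does not separate S phase from later phases. Of cells with 5 or more of the 40 genes, 65.7%, 67.0%, 40.1% and 51.4% also had 3 or more mitotic genes. Cells with 3 or more of 15 mitotic genes after thinning made up 38.4%, 42.9%, 20.9% and 14.1%. In them the summed level of the 40 genes was 4169, 4069, 4213 and 3687 CPM, and in the remaining cells 2241, 2466, 2443 and 1244 CPM. The 4 libraries were therefore closer to each other in cells with mitotic genes than in cells without. Labelled KO over WT in leukaemia was 0.875 (0.867 to 0.883) with mitotic genes and 0.509 (0.505 to 0.514) without, and these intervals do not meet. With mitotic genes 9 of 40 were lower by 1.5-fold (27.5% of all genes there) and the median was -0.26 beside -0.30 for all genes. Without them 35 of 40 were lower (36.7% of all genes) and the median was -1.07 beside -0.39. Within the progenitor gate the ratios with and without mitotic genes were 0.822 and 0.572, and within the maturing gate 0.785 and 0.498. The medians with mitotic genes were there -0.32 and -0.42, below the -0.21 and -0.22 of all genes, unlike the pooled median. In the erythroid gate the ratio was 0.787 (0.762 to 0.814) with mitotic genes and 0.930 (0.833 to 1.04) without, the reverse order. These values came from 53 and 126 cells with (of 2419 and 1537 over all gates) and 35 and 104 without. The reverse order was not kept at other thresholds. With and without, the erythroid ratios were 0.747 and 0.273 at 2 or more mitotic genes, and 0.795 and 0.750 at 5 or more. The median depth of the mitotic cells was 10854 UMIs labelled WT and 13113 UMIs labelled KO, and that of the remaining cells 5721 and 7071 UMIs.

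**Figure D5:**
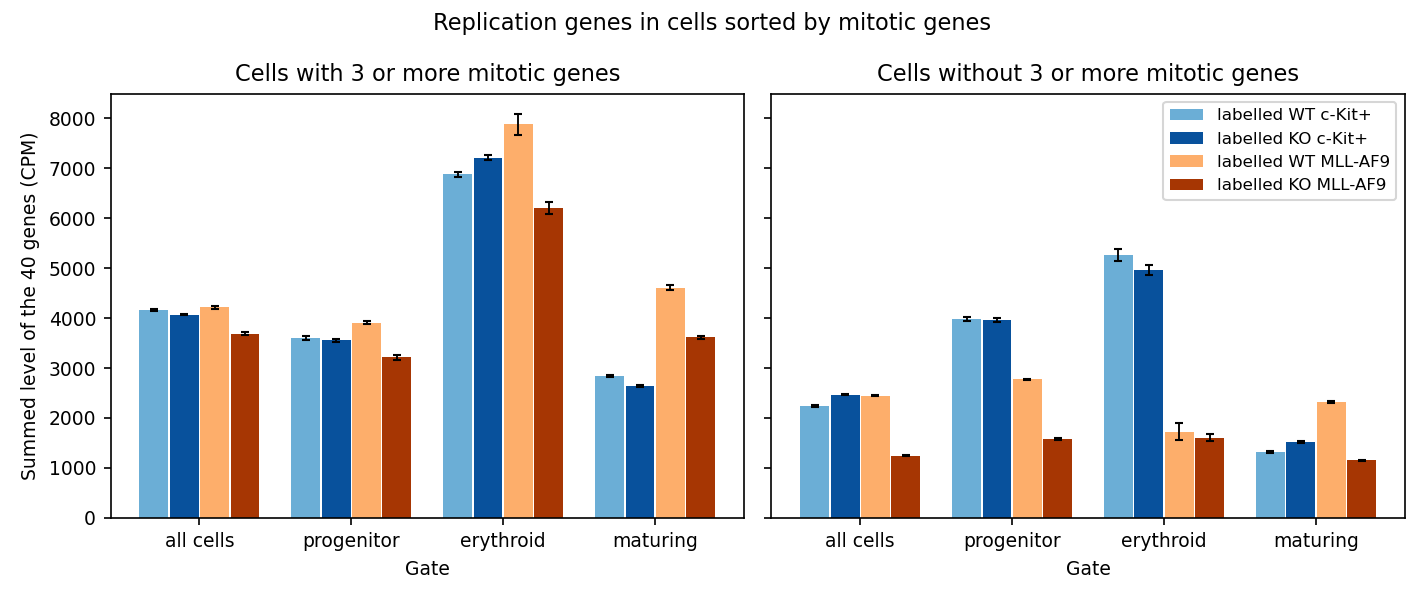
Summed level of the 40 genes (CPM, with exact Poisson 95% intervals) in cells with and without 3 or more of 15 mitotic genes, for all cells and 3 gates. In all cells the leukaemias labelled WT and KO are at 4213 and 3687 CPM with mitotic genes and at 2443 and 1244 CPM without; in the erythroid gate they are at 7879 and 6204 CPM with and at 1725 and 1605 CPM without.

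Single genes differed in how far they followed this division. Dtl was at 60.2 CPM labelled WT and 86.5 CPM labelled KO in leukaemia cells with mitotic genes, and at 53.3 and 18.5 CPM in cells without. It was thus higher in one set of cells (ratio 1.44, 1.34 to 1.54) and lower in the other (0.347, 0.325 to 0.370). Cdc6, with 30.6 and 33.5 CPM in mitotic cells and 25.005 and 8.69 CPM in the others, and Rrm2, with 251.1 and 308.6 CPM and with 48.2 and 30.8 CPM, were arranged alike. Ccne2 went the other way, at 63.6 and 48.7 CPM with mitotic genes and 27.5 and 29.8 CPM without. Wdr76, Hells, Ung and Cdca7 were low on both sides: Wdr76 was at 75.9 and 32.8 CPM with mitotic genes (ratio 0.433, 0.396 to 0.472) and at 41.9 and 8.88 CPM without (0.212, 0.194 to 0.231), and Hells at 108 and 63.2 CPM and at 115 and 29.8 CPM. These genes were picked out after their values had been seen, and CPM scaling alone was used in them.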

How the data were processed

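The deposited files hold unnormalised counts of UMIs, by gene and cell barcode, for 4 droplet libraries of mouse marrow cells, made by the authors with Cell Ranger 7.1.0 against mm10, per the submitters' processing notes; the gene annotation is not given in the sources used here. Counts were whole numbers with differing sums, and 0 columns were left unused. A cell had to show at least 500 genes, at least 1000 UMIs and no more than 10% of UMIs from mitochondrial genes. Scrublet (scanpy 1.11.5, expected rate 0.08) called 4.46%, 3.09%, 3.10% and 3.16% of them as doublets, which were removed. UMIs summed over kept cells gave CPM, and log2 ratios used a pseudocount of 1 CPM. Intervals at 95% are exact Poisson (levels), exact conditional binomial (ratios), Clopper-Pearson (shares) and Katz log (ratios of shares).

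The gates were called in order: T or NK and B (2 or more markers), erythroid (4 or more), maturing (2% or more of UMIs), progenitor (3 or more) and the rest. Vpreb1 is not a symbol in these files, so the B gate had 7 markers. Positions are GENCODE M21 and promoters RefSeq, both GRCm38. Cells thinned to 2000 UMIs were drawn with a fixed seed. Ratios and size factors were tested on simulated data. The members and all gene lists were chosen with earlier results of these data known. Values in every library are given for Mcm2, Mcm5, Cdc6, Gmnn, Pcna, Fen1, Pola1, Rrm1, Rrm2, Tyms, Uhrf1, Hells, Slbp, Chaf1b, Clspn, Ung, Wdr76, Ccne2 and E2f8, the representatives, and in each of 3 comparisons for the 3 highest and 3 lowest genes. Alternatives covered the cell filter, doublets, scaling, pseudocount, weighting of cells, thinning, gates and thresholds. Python 3.11.15, numpy 2.4.6, scipy 1.17.1 and pandas 2.3.3 were used.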

Additional observations from a re-analysis of the deposited data

Results flagged for a closer look

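For 15 of the 40 replication genes the 2 pairs of libraries lay on opposite sides of 1, with both intervals clear of it: the library labelled KO was lower than that labelled WT in leukaemia and higher in c-Kit+ cells. The c-Kit+ side was small, with ratios from 1.04 to 1.12, while the leukaemia ratios ran from 0.332 to 0.779. The log2 ratio in leukaemia minus that in c-Kit+ cells was widest for the remodeller Hells, at -1.62. It was -1.20 for the chromatin ATPase Atad2, -1.19 for Rad51ap1, -1.15 for the primase subunit Prim1 and -1.14 for Casp8ap2. For the helicase and licensing genes it was -0.96 for Mcm4, -0.95 for Cdc6, -0.94 for Gins2 and -0.76 for Gmnn. For genes that guard the fork it was -0.98 for Tipin, -0.91 for Rpa2, and -0.88 for both Clspn and Usp1. Rrm1, the large subunit of ribonucleotide reductase, was at -0.84 and the histone chaperone Nasp at -0.42. The opposite directions held in all 9 alternatives for 13 of the 15; Gins2 lost them with thinned cells and Nasp with median-ratio size factors. Of all genes whose mean reached 5 CPM in both pairs, 17.7% met the same condition, 74.5% of those tested in leukaemia had a log2 ratio below 0, and 53.0% of those tested in c-Kit+ cells did. With 1 library per group the difference between the pairs was not tested.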

How the results depend on the processing

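No paired analysis was possible because each group has 1 library. Directions held in all 9 alternatives for 34 of 40 genes in leukaemia (labelled KO over WT), and failed with median-ratio size factors for Pcna, Rrm2, Chaf1b, Nasp, Slbp and Ccne2; Ccne2 was also above 0 with thinned cells (0.0078) and when cells weighed equally (0.016). In c-Kit+ cells they held for 4 genes below 0 and 19 above, and for leukaemia over c-Kit+ cells for 14 below and 9 above; the causes were not tested. In leukaemia median-ratio size factors left 13 genes lower by 1.5-fold (33 as reported) and a median of -0.44. The median was -0.83 with a pseudocount of 0.1 CPM or when cells weighed equally, -0.71 with 5 CPM, -0.91 with thinned cells and -0.76 with gates matched. In c-Kit+ cells it was 0.032 with size factors, 0.11 when cells weighed equally, 0.13 with thinned cells and 0.011 with gates matched. For leukaemia over c-Kit+ cells it changed sign to 0.073 when cells weighed equally, 0.010 with thinned cells and 0.10 with gates matched; it was -0.063 with no cell filter, -0.061 with a pseudocount of 5 CPM, -0.14 with a stricter filter, -0.052 with doublets kept and -0.35 with size factors. There 13 genes were lower with size factors, 1 lower and 5 higher when cells weighed equally, 3 higher with thinned cells, and 1 lower and 2 higher with gates matched.

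For shares of many-gene cells in leukaemia (labelled KO over WT), the ratio over all, progenitor and maturing cells was 0.580, 0.648 and 0.597 at 3 or more genes, 0.419, 0.451 and 0.396 at 8 or more, and 0.621, 0.668 and 0.617 without thinning at 10 or more. It was 0.446 for all cells at 3000 UMIs and 7 genes, and 0.553 for maturing cells gated at 5%. In c-Kit+ maturing cells it was 0.922 at 8 or more. In cells with mitotic genes the leukaemia ratio of summed levels was 0.843 at 2 or more mitotic genes and 0.911 at 5 or more, and 0.771 in maturing cells at 2 or more. The c-Kit+ ratio at 5 or more was 0.966 in all, 0.969 in progenitor and 0.916 in maturing cells. The number of cells limits the erythroid gate of the leukaemias (92 and 241 cells), and depth limits the thinned counts, which leave out 510 to 1772 cells per library.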

Other observations

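Cells with B lineage markers, which the comparisons above do not use, had summed levels of the 40 replication genes of 3252 CPM (3208 to 3298) in c-Kit+ cells labelled WT and 3337 CPM (3294 to 3380.3) in those labelled KO, above the maturing gate of the same libraries. At 2000 UMIs, 5 or more of the 40 genes were detected in 32.7% (29.3 to 36.3) and 35.3% (31.9 to 38.9) of these cells. This gate held 1338 and 1475 cells in the c-Kit+ libraries, and 614 and 725 of them were too shallow to be thinned. In the leukaemias it held 140 and 18 cells, with 3395 CPM (3277 to 3517) and 1074 CPM (944 to 1217), and 18 cells are too few to compare. Cells outside every gate were at 1114, 1161, 1037 and 869 CPM in the 4 libraries.

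In the leukaemia labelled KO, Ccne2 and Cdca7 had late neutrophil levels above those of progenitor cells. The level there over that in the progenitor gate had a median over the 40 genes of 0.133 and 0.180 in c-Kit+ cells and 0.284 and 0.255 in the leukaemias labelled WT and KO. For Cdca7 it was 1.03 and 1.31 in the leukaemias, and for Ccne2 1.54 in that labelled KO. Both were singled out after their values had been seen.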
